A study of Mus musculus with 7 samples.

Results

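The genes described here are S100a8, S100a9, Il1b, Cxcl2, Arg1, Cxcr2, Retnlg, Csf3r, Trem1 and Ngp, which are used by neutrophils and by inflamed monocytes and macrophages. They are 10 of the 23282 rows in each table. They were chosen by gene symbol, partly because S100a9, Il1b, Cxcl2 and Arg1 were lower at Day 8 than after saline, so the Day 8 values of all 10 genes are given as a description, with no test. RNA was measured by QuantSeq, a 3′ mRNA sequencing method that reads the ends of polyadenylated transcripts, in 7 libraries of whole uterine tissue from C57BL/6 female mice, 6 weeks old. Under anaesthesia, one uterine horn was infused with 100 ng of recombinant human CXCL12, a chemokine, in 30 µl of saline, and the other horn with saline. The comparisons ask how the uterus differed from the saline-treated uterus 3 days (Day 3, n = 2) and 8 days (Day 8, n = 3) after CXCL12. The saline group (n = 2) carries no day in its labels, and the labels do not say which libraries came from one animal.

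Neutrophils are short-lived white blood cells that leave the blood when chemokines such as CXCL2 engage the receptor CXCR2 on their surface. Their cytosol is rich in the calcium-binding proteins S100A8 and S100A9, which pair to form calprotectin, and activated neutrophils and macrophages release interleukin-1β. In the uterus, such cells enter at mating, at tissue breakdown and after injury. Arginase 1, which splits arginine, is made by alternatively activated macrophages and is stored by some neutrophils.

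Library totals lay between 6908790 and 12308982, and 3 counts corresponded to 0.244 to 0.434 CPM, the count scaled to a common library total. Day 3 replicate 1 was deposited as log2 values only, with no counts, and its CPM was computed from the values returned to a linear scale. Day 8 replicate 1 is a Day 8 library by its label, but the name of its table says Day 3. On the log2 scale across 14830 genes it correlated more closely with the 2 Day 3 libraries (r = 0.950 and 0.953) than with the other Day 8 libraries (r = 0.894 and 0.901). In the tables, 2 neutrophil markers (Cxcr1 and Fcnb) were at 0 in all 7 libraries, and Ly6g, the defining surface marker of mouse neutrophils, was not analysed here. Csf3r, Trem1 and Ngp had 0 to 6 counts in any count library. Some other genes used by neutrophils were well above 0 after saline, S100a8 at up to 77.8 CPM, Mmp9 at up to 43.4 CPM and Padi4 at up to 20.5 CPM among them. Further granule genes were at or near 0 after saline. Elane and Itgb2l were at 0 in both saline libraries, Ctsg at 0 and 0.105 CPM, Mpo at 0 and 0.421 CPM, and Camp at 0 and 0.527 CPM. The genes are called by their symbols in what follows. In whole tissue, fewer cells of a type and less RNA per cell cannot be told apart.

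The promoters of 5 members are shown because S100a8, S100a9, Il1b and Cxcl2 were low together after CXCL12, whereas Retnlg was not. Cxcr2 was low as well, but its promoter is not shown, and Arg1 had no entry. Each is the 250 bases before the transcription start on the gene's own strand, from RefSeq (GRCm38.p6), and 9 of the 10 members had an entry. GENCODE M21 places the starts of S100a8 and Cxcl2 inside these windows. S100a8 lies at chr3:90668821-90669070 (+), S100a9 at chr3:90695722-90695971 (-), Il1b at chr2:129371140-129371389 (-), Cxcl2 at chr5:90903649-90903898 (+) and Retnlg at chr16:48872358-48872607 (+). Capitals mark matches, on either strand, to a TATA box (TATAAA), an NF-κB type motif (GGG, any 2 bases, then TTTCC), a C/EBP type motif (TTNNGNAA) or an AP-1 type motif (TGANTCA), where N is any base.
S100a8: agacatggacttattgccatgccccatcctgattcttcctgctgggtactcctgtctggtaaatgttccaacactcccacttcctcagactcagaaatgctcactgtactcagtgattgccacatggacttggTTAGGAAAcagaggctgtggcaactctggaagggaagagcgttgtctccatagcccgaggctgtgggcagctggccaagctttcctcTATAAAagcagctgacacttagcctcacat
S100a9: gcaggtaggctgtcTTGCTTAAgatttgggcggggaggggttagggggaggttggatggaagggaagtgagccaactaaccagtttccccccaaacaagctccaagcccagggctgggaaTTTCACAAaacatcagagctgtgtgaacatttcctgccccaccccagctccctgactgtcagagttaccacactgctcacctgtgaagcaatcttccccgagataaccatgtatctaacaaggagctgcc
Il1b: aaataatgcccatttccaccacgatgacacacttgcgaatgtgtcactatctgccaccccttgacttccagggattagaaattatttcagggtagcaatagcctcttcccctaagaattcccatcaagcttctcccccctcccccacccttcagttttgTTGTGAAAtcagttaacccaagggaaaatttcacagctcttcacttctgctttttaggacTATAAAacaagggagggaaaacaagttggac
Cxcl2: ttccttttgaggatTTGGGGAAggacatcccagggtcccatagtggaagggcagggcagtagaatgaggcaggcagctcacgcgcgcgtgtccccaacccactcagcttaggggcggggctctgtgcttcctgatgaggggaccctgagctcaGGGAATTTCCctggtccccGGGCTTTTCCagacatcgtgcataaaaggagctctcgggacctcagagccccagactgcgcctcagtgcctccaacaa
Retnlg: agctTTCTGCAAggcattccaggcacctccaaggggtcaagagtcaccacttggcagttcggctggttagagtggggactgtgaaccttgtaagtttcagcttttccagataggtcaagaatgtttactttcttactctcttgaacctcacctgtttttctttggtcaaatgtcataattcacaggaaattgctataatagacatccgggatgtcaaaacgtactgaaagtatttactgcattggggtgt

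The TATA box letters began 30 bases before the start of S100a8 and 31 bases before that of Il1b, and 12.4% of 32851 promoters of this length held them. The NF-κB type letters occurred 2 times in the Cxcl2 promoter, beginning 97 and 78 bases before the start, and 1.41% of all promoters held at least 1 match. The C/EBP type letters occurred in 7 of the 9 promoters, among them all 5 shown, against 36.8% of all promoters. The promoters of Cxcr2, which was also low after CXCL12, and of Csf3r held no match to any of these motifs. No member's promoter held the AP-1 type letters, which 6.75% of promoters did. No 2 of these matches overlapped in the 5 promoters shown, and a match is a description of the letters, not a measured binding site.

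S100a8 and S100a9, the paired chains of calprotectin, were both lower in every CXCL12 library than in either saline library. S100a8 was at 25.04 and 77.8 CPM in saline replicates 1 and 2, at 5.27 and 4.21 CPM in the Day 3 replicates, and at 14.4, 3.90 and 4.63 CPM in Day 8 replicates 1, 2 and 3. Saline replicate 2 was the highest, and Day 8 replicate 1 was the CXCL12 library nearest to saline. S100a9 was at 34.4 and 70.5 CPM after saline, at 7.95 and 4.21 CPM at Day 3, and at 7.39, 6.01 and 5.83 CPM at Day 8. The 5 CXCL12 libraries lay within a narrow band for S100a9 and below both saline libraries.

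The saline mean of S100a8 was 51.4 ± 37.3 CPM (SD, n = 2), against 4.74 ± 0.749 CPM at Day 3 (SD, n = 2) and 7.63 ± 5.85 CPM at Day 8 (SD, n = 3). For S100a9 the means were 52.5 ± 25.5, 6.08 ± 2.64 and 6.41 ± 0.854 CPM in the same order. The log2 difference of Day 8 from saline, by edgeR's quasi-likelihood fit, was -2.49 (SE 0.73) for S100a8 and -2.79 (SE 0.41) for S100a9. These genes sit next to each other on chromosome 3, S100a8 at 90668978 to 90670035 on the plus strand and S100a9 at 90692632 to 90695721 on the minus strand (GENCODE M21, GRCm38), with no other gene's exons over theirs. The log2 ratio of S100a8 to S100a9 stayed between -0.62 and 0.96 over the 7 libraries, with the high value in Day 8 replicate 1.

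Il1b encodes interleukin-1β, the secreted cytokine that starts much of the acute inflammatory response. It was at 6.37 and 10.01 CPM after saline, at 0.582 and 1.40 CPM at Day 3, and at 1.04, 0.894 and 3.72 CPM at Day 8. All 5 CXCL12 libraries were below both saline libraries, and Day 8 replicate 3 came closest, with 37 counts against 44 in saline replicate 1. The log2 difference of Day 8 from saline was -1.89 (SE 0.72), or -2.80 without Day 8 replicate 3. Il1b lies on chromosome 2 (129364570 to 129371139, minus strand), and exons of the antisense gene Il1bos overlap it. Il1bos had 2 counts in saline replicate 1 and 0 in the other count libraries, and whether the counting used strand is not given in the sources used here.

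Cxcl2, on chromosome 5 (90903871 to 90905938, plus strand), encodes a chemokine that draws neutrophils through CXCR2. It was at 3.04 and 11.2 CPM after saline, 0.294 and 0.502 CPM at Day 3, and 0.521, 0.244 and 1.11 CPM at Day 8. That is 21 and 106 counts in the saline libraries against 3 to 11 counts in the Day 8 libraries, with no overlap between saline and CXCL12. The log2 difference of Day 8 from saline was -3.28 (SE 0.87). Of the 50-base words in the last 500 bases of Cxcl2 transcripts, 7.63% also occur in Cxcl3, its close relative, so part of its reads could not be assigned to 1 gene. Reads with multiple alignments were counted by the authors.

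Cxcr2, on chromosome 1 (74153989 to 74161246, plus strand), encodes the receptor for CXCL2 and related chemokines on neutrophils. It had 25 and 18 counts in the saline libraries (3.62 and 1.90 CPM), 5 counts in Day 3 replicate 2 (0.502 CPM), and 1, 1 and 2 counts in the Day 8 libraries (0.104, 0.0812 and 0.201 CPM). Day 3 replicate 1 was at 0.292 CPM. The exact binomial 95% intervals, which cover counting error only, were 2.34 to 5.34 and 1.12 to 3.00 CPM in the saline libraries and reached no higher than 0.727 CPM in any Day 8 library. The 2 groups did not overlap, and Cxcr2 passed the filter on low counts only through the saline libraries. Cxcl2 met that filter in the saline libraries and, of the CXCL12 libraries, only in Day 8 replicate 3 (11 counts). The fitted log2 difference of Cxcr2, Day 8 from saline, was -4.04 (SE 0.93).

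Arg1, on chromosome 10 (24915221 to 24927484, minus strand), encodes arginase 1. It was at 20.6 and 66.0 CPM after saline, at 8.90 and 7.32 CPM at Day 3, and at 3.02, 2.19 and 3.42 CPM at Day 8. The 3 groups did not overlap, with saline highest and Day 8 lowest. The saline mean was 43.3 ± 32.1 CPM (SD, n = 2), the Day 3 mean 8.11 ± 1.12 CPM (SD, n = 2) and the Day 8 mean 2.88 ± 0.626 CPM (SD, n = 3). The log2 difference of Day 8 from saline was -3.68 (SE 0.56). Arg2, the mitochondrial arginase of a separate gene, lay between 85.0 and 103 CPM in all 7 libraries, and the log2 ratio of Arg1 to Arg2 went from -2.32 and -0.43 after saline to -3.32 and -3.80 at Day 3 and to -4.94, -5.46 and -4.64 at Day 8.

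Retnlg, which encodes a resistin-like protein abundant in mouse neutrophils, did not follow the other members. It lies on chromosome 16 (48872621 to 48874496, plus strand). It was at 90.6 and 66.1 CPM after saline, 124 CPM in both Day 3 libraries, and 76.2, 131 and 159 CPM at Day 8. Saline and Day 8 overlapped through Day 8 replicate 1, and both Day 3 libraries were above both saline libraries. The log2 difference of Day 8 from saline was 0.89 (SE 0.35), below the fold change of 2 that a call required. None of the 50-base words in the last 500 bases of Retnlg occurred in another gene's transcripts, so its reads could be told from those of Retnla and Retn.

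Csf3r, Trem1 and Ngp had too few counts to pass the filter and were not tested. Csf3r, the receptor for the neutrophil growth factor G-CSF, had 4 and 5 counts in the saline libraries, 0 in Day 3 replicate 2, and 2, 3 and 1 in the Day 8 libraries. For Csf3r, Day 3 replicate 1 was at 0.476 CPM, an estimated 5 reads, beside 0.527 CPM in saline replicate 2. Trem1 and Ngp had an estimated 0 reads in Day 3 replicate 1. Trem1, a receptor that amplifies inflammatory signals in myeloid cells, had 4 and 6 counts after saline, 0 in Day 3 replicate 2, and 0, 1 and 1 at Day 8. Ngp, a granule protein of immature neutrophils, had 2 and 1 counts after saline and 0, 0, 1 and 0 in the 4 CXCL12 count libraries. Their saline levels, 0.105 to 0.632 CPM, were close to the level of 3 counts in 1 library. With no filter on low values, Trem1 passed the thresholds given below as lower at Day 3 (-2.20, SE 0.47), and Csf3r and Ngp did not.

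**Figure D1:**
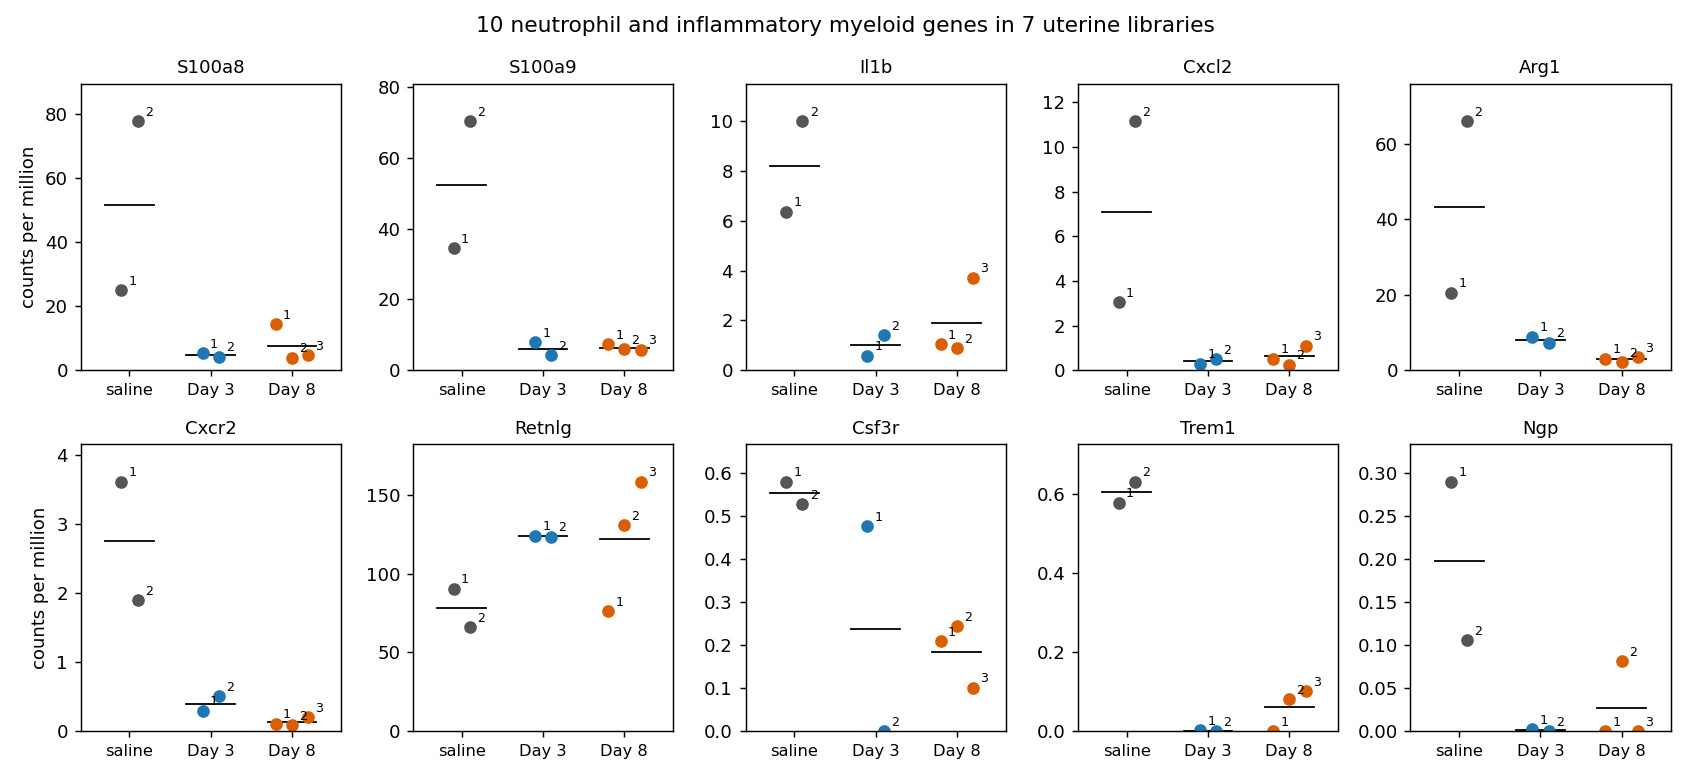
Level of each of the 10 members in CPM (vertical axes, each from 0) in the saline, Day 3 and Day 8 libraries. Points are libraries with their replicate number and lines are group means. In every panel but Retnlg both saline points lie above all 5 CXCL12 points, and in the Csf3r, Trem1 and Ngp panels these points stand for 0 to 6 counts. The lowest saline and highest CXCL12 points are 0.527 and 0.476 CPM for Csf3r, and 0.105 and 0.0812 CPM for Ngp. Of the 14830 genes that passed the filter, 15.7% had both saline libraries above all 5 CXCL12 libraries, and Day 8 values chose some members.

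Counted over the genes, 6 of the 7 tested members passed both thresholds of the study (fold change 2 and P 0.05, unadjusted) as lower at Day 8 than after saline, and none as higher. Over all genes 218 of 15388, or 1.42%, passed as lower and 1.53% as higher. This contrast chose members, so nothing is read from their share. Without saline replicate 2 the members passing fell from 6 to 3 (S100a9, Arg1 and Cxcr2), and the log2 difference became -1.36 for S100a8, -1.96 for Cxcl2 and -2.51 for Arg1. The Il1b call was also lost without saline replicate 1, Day 8 replicate 1 or Day 8 replicate 2. Without Day 8 replicate 1, 5 members passed as lower and Retnlg passed as higher, at 1.11. After Benjamini-Hochberg adjustment at 0.1, edgeR left no gene at Day 8, where 658 had an unadjusted P under 0.05, and 49 genes passed by DESeq2.

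At Day 3, S100a8, S100a9, Il1b, Cxcl2 and Arg1 were lower than after saline. The Day 3 libraries had no part in choosing the members, but this comparison shares both saline libraries with the one that did. The log2 difference on the log2(normalized count + 1) scale, by limma, was -2.86 (SE 0.78) for S100a8, -2.73 (SE 0.49) for S100a9 and -2.53 (SE 0.81) for Il1b. It was -3.002 (SE 1.06) for Cxcl2 and -1.87 (SE 0.60) for Arg1. These 5 of 7 tested members passed both thresholds as lower, beside 2.64% of 14830 genes, while 2.00% of genes and no member passed as higher. S100a9, Il1b, Cxcl2 and Arg1 were chosen as low against these same saline libraries, so nothing is read from this share. Cxcl2 and Cxcr2 were at 0.502 CPM or less in both Day 3 libraries. Both passed the filter on low values through the saline libraries, so the filter let them be called only as lower.

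Each of the 7 members had a limma adjusted p of 0.617 at Day 3, which was also the smallest of any gene, so none passed the adjusted threshold of 0.1, and 1112 genes had an unadjusted P under 0.05. Cxcr2, at -1.97 (SE 0.96), and Retnlg, at 0.81 (SE 0.34), did not pass. Without saline replicate 2 only S100a9 passed at Day 3, and without Day 3 replicate 1 there were 3 (S100a8, S100a9 and Arg1). The Arg1 call was also lost without Day 3 replicate 2, and without saline replicate 1 Retnlg passed as higher, at 1.04. The direction of each of the 7 tested members, at Day 3 and at Day 8, was the same under every alternative run.

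**Figure D2:**
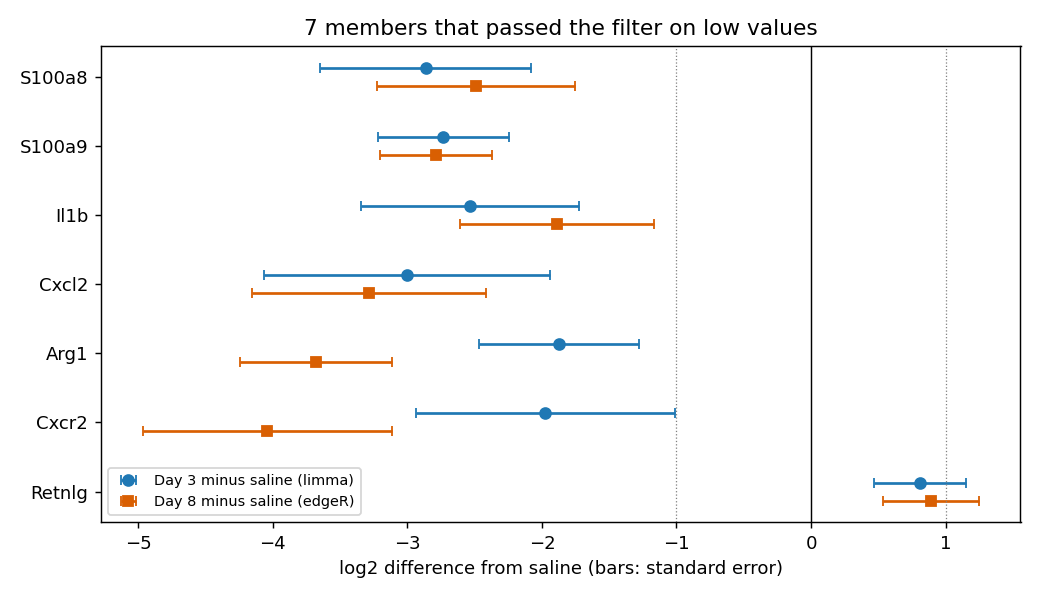
Log2 difference from saline (horizontal axis) of the 7 members that passed the filter on low values, at Day 3 (circles, limma) and Day 8 (squares, edgeR), with standard errors as bars and dotted lines at a fold change of 2. Of the 7 genes, 6 lie left of 0 at both days, and Retnlg lies between 0 and the right dotted line.

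Between Day 3 and Day 8, Arg1 alone among the tested members passed the thresholds, as lower at Day 8. Its log2 difference of Day 8 from Day 3 was -1.55 (SE 0.54, limma adjusted p = 0.695). The call was lost without Day 3 replicate 1, Day 3 replicate 2 or Day 8 replicate 2, and also with Day 8 replicate 1 counted as a Day 3 library. Over all genes 2.33% passed as lower. For S100a8 the difference was 0.30 (SE 0.72), for S100a9 0.03 (SE 0.44) and for Il1b 0.44 (SE 0.74), each smaller than its standard error and of a sign that turned under other settings. Cxcl2, Cxcr2 and Retnlg did not pass either.

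Across genes, 6 of the 7 tested members had both saline libraries above all 5 CXCL12 libraries, and the share over all 14830 tested genes was 15.7%. This count includes the Day 8 values that chose members. Over the 7 libraries, Pearson's r between pairs of the 6 tested members other than Retnlg ran from 0.652 to 0.941 (median 0.818, 15 pairs, quantile-normalized log2 scale), and Retnlg against those 6 ran from -0.955 to -0.559. These points share their libraries and the contrast between saline and CXCL12.

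The genes whose pattern over the 7 libraries was most like that of 4 members were ranked by Pearson's r among 13775 genes. For S100a9 they were Tmem194, Lgals3, 2210406O10Rik, Zranb2 and U2surp, with r from 0.951 to 0.966. Lgals3, which encodes galectin-3, a lectin of macrophages and epithelia, was at 172 and 186 CPM after saline and at 92.1 to 106 CPM in the 5 CXCL12 libraries. For Arg1 they included Hspa4, Fam49b, Prpf4 and Lrrfip1, with r from 0.935 to 0.971. For Il1b they were Tmem194b, Syne3, Ddc, Frmd4a and Atp2a2, with r from 0.921 to 0.935, and for Cxcl2 they were Ptgs1, Tmem194b, Stt3b, Grb10 and Ago4, with r from 0.902 to 0.925. Ptgs1 encodes cyclooxygenase 1.

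Most genes of neutrophil granules did not pass at either day. Of 14 granule genes 9 were tested at Day 8, where 1 was lower (Ltf) and the median log2 difference was -0.60, against -0.0078 over all genes. At Day 3, 1 was lower (Mmp9, -1.12, SE 0.44) and 1 was higher (Mpo, 4.13, SE 0.82), with a median of 0.23 against 0.013 over all genes. Ltf, lactoferrin, which the uterine epithelium also makes under oestrogen, was at 190 and 31.9 CPM after saline and at 16.3 to 34.6 CPM in the CXCL12 libraries, which overlap saline replicate 2. Without saline replicate 1 the Day 8 difference of Ltf was -0.24 and the Day 3 difference of Mmp9 was -0.62, and neither passed. Lcn2, another secreted granule protein that epithelia make, was at 113 and 197 CPM after saline, at 386 and 357 CPM at Day 3, and at 230, 7.47 and 8.25 CPM at Day 8, and passed as lower between Day 3 and Day 8. That Lcn2 call was lost without Day 8 replicate 2 or 3, and without Day 3 replicate 1 or 2. Mpo, myeloperoxidase, was at 0 and 0.421 CPM after saline, at 2.39 and 2.81 CPM at Day 3, and at 1.56, 1.30 and 0.503 CPM at Day 8. Mpo passed the filter on low values only through CXCL12 libraries, so the filter let it be called only as higher.

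Among 12 tested genes of the neutrophil surface and cytosol, 5 were lower at Day 8 (Asprv1, Clec4d, Clec4e, Gm5483 and Wfdc21) and 1 was higher (Hdc), with a median log2 difference of -1.41. Over all genes 1.42% passed as lower and 1.53% as higher. Clec4e and Gm5483 passed the filter on low counts only through saline libraries, so the filter let them be called only as lower. At Day 3, 1 of 10 was lower (Asprv1, -1.999, SE 0.82). Clec4d and Clec4e, lectin receptors of myeloid cells, were at 1.74 and 12.5 CPM and at 1.45 and 8.01 CPM after saline. In the CXCL12 libraries Clec4d lay between 0.104 and 1.38 CPM and Clec4e between 0 and 0.484 CPM, below both saline libraries in each case. Gm5483, a stefin-like gene, was at 0 in saline replicate 1 and at 2.95 CPM in saline replicate 2, so its call rests on 1 library. Without saline replicate 2 the Day 8 differences of Clec4d, Clec4e and Wfdc21 were -0.64, -2.24 and -1.07, and none of these passed. Without saline replicate 1 Asprv1 was at -1.33 at Day 8 and -1.36 at Day 3 and did not pass. Wfdc21 was at 9.70 and 36.1 CPM after saline and at 25.1 CPM in Day 3 replicate 1, with 1.61 to 5.83 CPM in the other CXCL12 libraries. Hdc, the histamine-forming enzyme, which the uterine epithelium and mast cells also make, was at 108 and 89.4 CPM after saline and at 83.8, 195 and 382 CPM at Day 8. The Day 8 difference of Hdc was 1.40 (SE 0.58), and 0.75 without Day 8 replicate 3, where it did not pass. It also did not pass without Day 8 replicate 2, saline replicate 1 or saline replicate 2. Hdc also passed as higher between Day 3 and Day 8, a call lost without Day 3 replicate 1 or 2. Mxd1 lay between 5.94 and 13.1 CPM.

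The signals that recruit neutrophils showed no called gene at Day 8 among 9 tested, with a median of 0.080. At Day 3 the epithelial chemokines Cxcl5 (-1.64, SE 0.69) and Cxcl15 (-1.58, SE 0.50) were lower, and Csf3, which encodes G-CSF, was higher (2.23, SE 0.82). Cxcl15 was at 37.9 and 18.9 CPM after saline, 5.46 and 9.23 CPM at Day 3, and 19.4, 10.2 and 19.5 CPM at Day 8. Csf3 lay between 0.316 and 1.21 CPM in every library, and its difference was 1.05, not passing, with library size scaling alone. Csf3 passed the filter on low values only through CXCL12 libraries, so the filter let it be called only as higher. Without saline replicate 2 Cxcl5 was at -1.02, and without saline replicate 1 Cxcl15 was at -1.10, and neither passed. The Cxcl5 call was also lost without Day 8 replicate 1 or 3, and without Day 3 replicate 1 or 2. Icam1 and Selp, adhesion molecules of the vessel wall, gave log2 differences of 0.53 (SE 0.41) and 0.080 (SE 0.77) at Day 8 and did not pass.

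Of the interleukin-1 pathway, the receptor gene Il1r1 passed as lower at both days and Saa3 at Day 8, while most genes did not pass. Il1r1, the signalling receptor, was at 29.7 and 16.8 CPM after saline and at 6.04 to 11.8 CPM in the 5 CXCL12 libraries. Its log2 difference was -1.02 (SE 0.37) at Day 8 and -1.28 (SE 0.39) at Day 3. Saa3, an acute-phase protein, was at 48.2 and 212 CPM after saline, 51.3 and 8.73 CPM at Day 3, and 19.7, 44.4 and 9.15 CPM at Day 8, with a log2 difference of -2.20 (SE 0.78) at Day 8 and -2.03 (SE 1.05) at Day 3. Without saline replicate 2 the Day 8 difference of Saa3 was -0.67, and without saline replicate 1 that of Il1r1 was -0.63, and neither passed. Of the 17 genes tested at Day 8 the other 15 did not pass and the median was 0.21, and of 15 tested at Day 3 the other 14 did not pass and the median was -0.32. Nfkbia, a feedback inhibitor of NF-κB, was at 258 to 379 CPM throughout, and Myd88, the adaptor of the interleukin-1 receptor, was at 27.6 to 90.7 CPM.

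Of the 10 tested genes of arginine use and alternative macrophage activation other than Arg1, none passed at either day, and the medians were -0.10 at Day 8 and -0.037 at Day 3. Among them Odc1, the next enzyme towards polyamines, was at 43.1 and 133 CPM after saline and at 37.6 to 114 CPM after CXCL12, and Il4ra, the receptor that drives Arg1 in macrophages, was at 63.8 to 138 CPM. The 10 tested S100 genes other than S100a8 and S100a9 had medians of 0.54 at Day 8 and 0.56 at Day 3, the opposite sign to the pair. Only S100g passed at Day 8, as higher (3.58, SE 0.82), and none at Day 3. Between Day 3 and Day 8, S100g passed as higher and S100a14 and S100b as lower. The S100a14 and S100b calls were each lost in 4 of 7 runs with a library left out, and the S100g call in none. S100a6 and S100a10 were at 571 and 630 CPM and at 307 and 645 CPM after saline, and at 671 CPM or more and 656 CPM or more in the CXCL12 libraries.

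**Figure D3:**
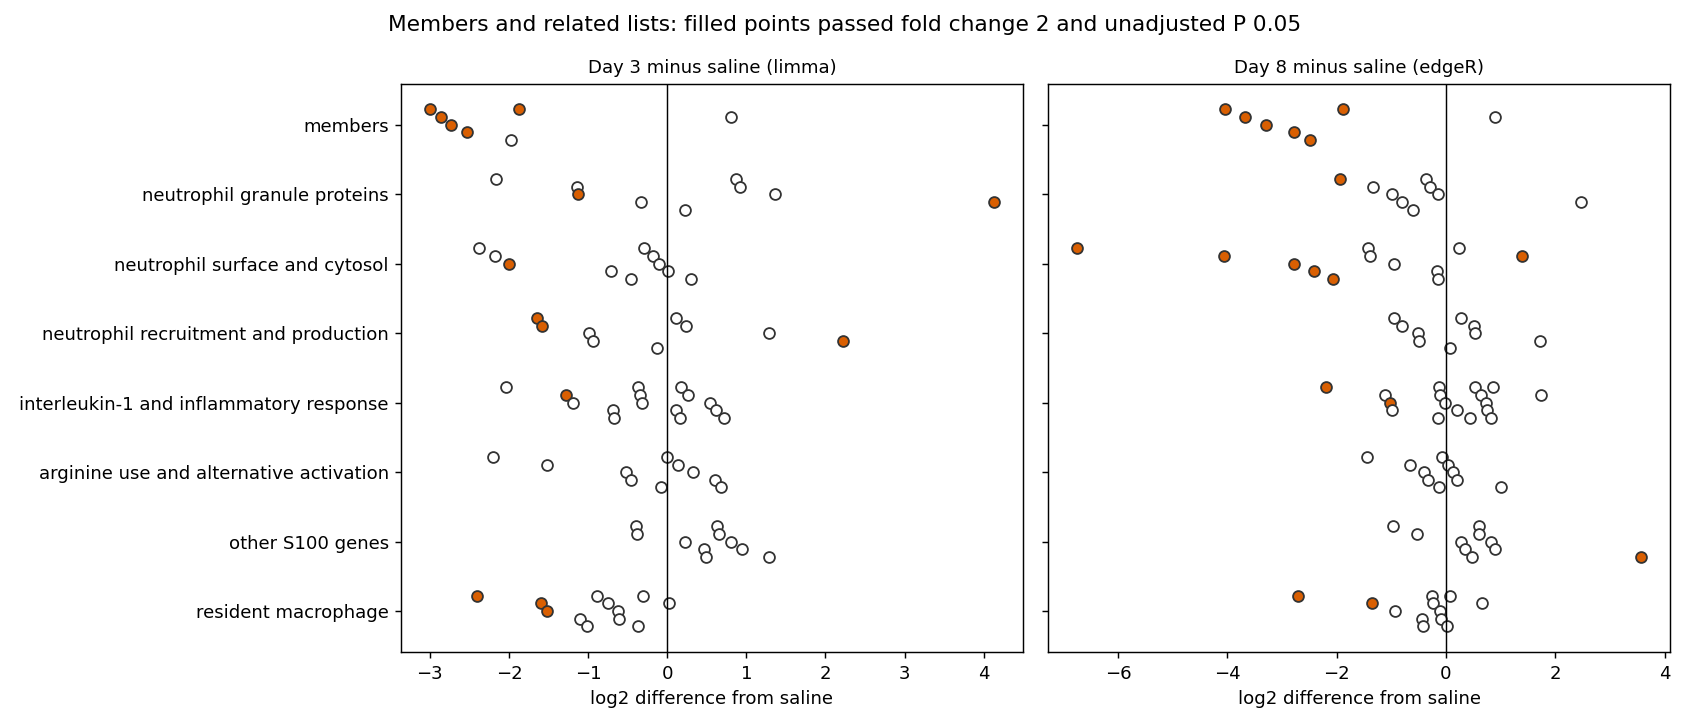
Log2 difference from saline (horizontal axes) of every tested gene of the members and of 7 related lists (rows), at Day 3 (left) and Day 8 (right). Filled points passed both thresholds (fold change 2 and P 0.05, unadjusted). Filled points are 5 of 7 for the members at Day 3 and 6 of 7 at Day 8, all as lower. Over all genes 2.64% passed as lower at Day 3 and 1.42% at Day 8, and the Day 8 contrast chose some members.

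Markers of other cells that could carry member transcripts were read beside these results. Of 12 tested resident macrophage genes, Cd163 and Cd68 were lower at Day 8 and, with Csf1r, at Day 3. Over all genes 1.42% passed as lower at Day 8 and 2.64% at Day 3. Cd163 was at 0.905 CPM or less in the CXCL12 count libraries and passed the Day 8 filter on low counts only through the saline libraries. Cd68 was at 79.0 and 42.5 CPM after saline and at 15.2 to 23.4 CPM in the 5 CXCL12 libraries. The sum of the 13 macrophage genes was 1130 and 601 CPM after saline, 431 and 365 CPM at Day 3, and 267, 810 and 859 CPM at Day 8. The 2 Day 3 libraries and Day 8 replicate 1 were below both saline libraries for this sum, and Day 8 replicates 2 and 3 were between them. The part of macrophage RNA in the members' differences was not tested. C1qb, Lyve1 and C1qc, the highest of the list by mean CPM, did not pass at either day.

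The sum of 10 adipocyte markers was 1492 and 3759 CPM after saline, 3543 and 464 CPM at Day 3, and 320, 557 and 404 CPM at Day 8, and 9 of the 10 passed as lower at Day 8. None of them is at 0 in any library. Day 3 replicate 1, whose adipocyte sum was within the saline range, had S100a9 at 7.95 CPM, Il1b at 0.582 CPM and Arg1 at 8.90 CPM, below both saline libraries. In Day 3 replicate 2 and the 3 Day 8 libraries the adipocyte sum and the members were low together, and the part of this in the differences was not tested. Squamous epithelium can make S100a8 and S100a9, and hepatocytes make Arg1. The sum of 10 squamous markers was 30.4 and 38.6 CPM after saline and 28.7 to 40.1 CPM after CXCL12. That of 10 hepatocyte markers was 6.95 and 12.2 CPM after saline and 1.91 to 8.05 CPM after CXCL12. Of both lists only Apoa1, a hepatocyte marker, passed against saline, as lower at Day 3 (-4.30, SE 1.34). Apoa1 was at 4.20 and 5.90 CPM after saline and at 0 to 3.82 CPM after CXCL12. Krt14, a squamous marker, was at 2.75 and 2.42 CPM after saline and at 0 to 1.44 CPM after CXCL12. The part of these cells in the members' differences was not tested. The sum of 5 monocyte markers was 424 and 542 CPM after saline and 578 to 1554 CPM after CXCL12, most of it from Plac8, which passed as higher at Day 8. Of the same list, F13a1 was at 40.7 and 43.0 CPM after saline and lower in all 5 CXCL12 libraries, at 3.85 to 35.5 CPM, and Ccr2 was at 70.1 and 62.7 CPM after saline, 48.8 and 47.4 CPM at Day 3, and 24.8, 70.7 and 93.9 CPM at Day 8. The sum of 7 red cell markers was 6793 and 10994 CPM after saline and 9552 to 25414 CPM after CXCL12. Sums of 8 progesterone-induced genes were 87.7 and 97.3 CPM after saline, 41.9 and 53.2 CPM at Day 3, and 65.3, 238 and 398 CPM at Day 8, so Day 8 replicate 1 stood apart from the other Day 8 libraries there as well.

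**Figure D4:**
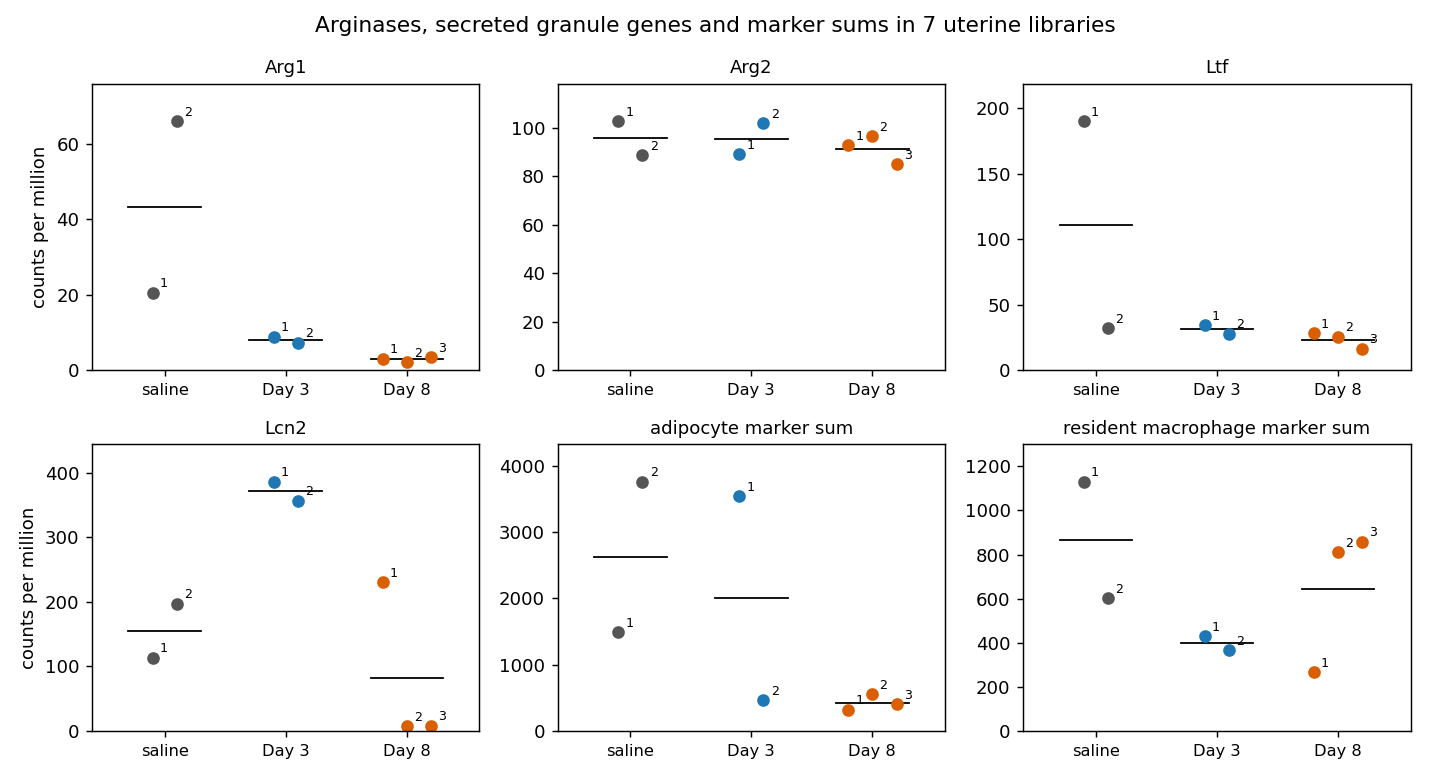
Level in CPM (vertical axes, each from 0) of Arg1, Arg2, Ltf and Lcn2 and of the summed adipocyte and resident macrophage markers in the 7 libraries. Points are libraries with their replicate number and lines are group means. Arg1 steps down from saline to Day 3 to Day 8 while Arg2 stays between 85.0 and 103 CPM, and the adipocyte sum of Day 3 replicate 1 lies within the saline range.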

How the data were processed

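Uterine RNA was measured by QuantSeq 3′ mRNA sequencing in 7 libraries (2 saline, 2 CXCL12 Day 3, 3 CXCL12 Day 8). The authors used Bowtie2 to align single-end reads of 75 bases and Bedtools to count them, keeping reads with multiple alignments, and applied quantile normalization in edgeR. The submitters' processing notes name the builds hg19 and mm10, with no role, and versions are not given in the sources used here. The authors deposited raw read counts for 6 libraries. The table deposited for Day 3 replicate 1 holds log2 values: undone and divided by 1.0505, 98.5% of 2766 low values came within 0.1 of a whole number, where 20% would by an even spread. The 6 other totals ranged from 6908790 to 12308982, so counting error is small for abundant members and large for those with few counts. Rows with a blank name were left out of totals, Rn45s took 9.36% to 13.0% of each library, and 35 symbols on more than 1 row were kept apart.

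Groups follow the sample labels. Replicates are separate samples by label, and the sources used here do not tie each library to an animal, so P values measure the spread between these samples, which may be technical. Day 8 was compared with saline on counts by edgeR 4.0.16 (glmQLFit and glmQLFTest, TMM, filterByExpr with a minimum count of 10, 3 residual degrees of freedom). The 2 comparisons with Day 3 libraries (against saline, and Day 8 against Day 3) used limma 3.58.1 with a trend on log2(normalized count + 1), scaled and quantile-normalized over the 7 libraries (4 residual degrees of freedom). The added 1 understates changes of low genes, while quantile normalization can widen them. For Csf3 at Day 3 the difference was larger with quantile normalization than with library size scaling alone. Calls over all genes took the fold change (2) and unadjusted P (0.05) of the study, or a Benjamini-Hochberg adjusted p of 0.1. The scripts were tested on simulated data. R 4.3.3 and DESeq2 1.42.0 served alternatives. The members and lists were chosen with earlier results of these data known, so the lists are described by counts and medians and not tested. All 10 members are named, and from each list the called genes and the 3 of highest mean CPM. Cxcr1, Fcnb, Ly6g and single marker genes were named after their values were seen. One of the genes ranked by likeness to a member is not reported here.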

Additional observations from a re-analysis of the deposited data

Results flagged for a closer look

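Of 70 member and list genes examined, 2 had all Day 3 libraries on one side of the saline mean and all Day 8 libraries on the other, and neither was a member. S100g, a calcium-binding protein of the uterine epithelium, lay at -0.59 and -0.29 from the saline mean on the log2 scale in the Day 3 libraries and at 1.05 to 4.05 in the Day 8 libraries. Its Day 8 minus Day 3 difference was 3.26 (SE 0.70, limma adjusted p = 0.653). Nfkbiz, a nuclear regulator of NF-κB targets, was 0.066 to 0.45 above the saline mean at Day 3, while the Day 8 libraries were at -0.37 to -0.15. The Day 8 minus Day 3 difference of Nfkbiz was -0.58 (SE 0.27, limma adjusted p = 0.698). Neither difference passed the adjusted threshold of 0.1. The rule that flagged these genes did not look for single outlying libraries. S100g was at 361 CPM in Day 8 replicate 1, against 2096 and 2892 CPM in Day 8 replicates 2 and 3.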

How the results depend on the processing

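For each of the 7 tested members, the direction of the Day 3 and Day 8 differences from saline was the same in every alternative that gave a value. Genes passing at Day 8 went from 453 to 157 with the replicate block and to 1094 with Day 8 replicate 1 counted as Day 3, and ranged from 229 to 1527 when 1 library was left out. The members passing at Day 8 were 6 with and without the replicate block, and 3 to 6 with a library left out, the lowest without saline replicate 2. The 6 without Day 8 replicate 1, or with it counted as Day 3, were 5 lower and Retnlg higher. Genes passing at Day 3 went from 688 to 1042 with library size scaling alone, and from 279 to 2937 with a library left out, the highest without saline replicate 2. That scaling moved the median of all genes by Day 3 from 0.013 to -0.26 and the share of higher calls from 43% to 10.2%. By edgeR on estimated counts the share was 21.1% at Day 3, and between Day 3 and Day 8 it was 68% against 48.5%. Members passing at Day 3 ranged from 1 to 6 with a library left out, the 6 being 5 lower and Retnlg higher without saline replicate 1. With no filter on low values 7 passed as lower, Trem1 among them. Genes passing between Day 3 and Day 8 went from 672 to 418 with the replicate block and to 1782 with Day 8 replicate 1 counted as Day 3, and from 271 to 1642 with a library left out. Members passing there went from 1 to 0 with that library counted as Day 3, and from 0 to 1 with a library left out.

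Directions that turned were those between Day 3 and Day 8, which were smaller than their standard errors as reported. With Day 8 replicate 1 counted as Day 3, S100a8 was at -0.90 and S100a9 at -0.27. With the replicate block, in either pairing, Il1b was at -0.19 and Retnlg at -0.17. Cxcl2 was at 0.39 with library size scaling alone, 0.084 with no filter and 0.64 by edgeR on estimated counts, where Retnlg was at -0.090 with that scaling and -0.032 by edgeR. With a library left out, S100a8 ranged from -0.35 to 0.74, S100a9 from -0.44 to 0.50, Il1b from -0.15 to 0.97, Cxcl2 from -0.52 to 0.73 and Retnlg from -0.18 to 0.31. The causes were not tested. The replicate numbers are not shown to pair libraries: the correlation, over genes, of replicate 1 minus replicate 2 was -0.056 between saline and Day 3, -0.14 between saline and Day 8, and 0.0076 between Day 3 and Day 8. Crossing the saline numbers, tried after seeing the data, gave 336 calls at Day 8 and 878 at Day 3, with 6 and 5 members.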
